A study of Rattus norvegicus with 27 samples.

Results

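Il15, Csf1, Il33 and Tgfb2, which encode the cytokine ligands IL-15, CSF1, IL-33 and TGF-β2, were followed through 27 arrays of cultured rat oligodendrocyte precursor cells (OPCs). They are 4 of the 14217 genes that the array annotation names alone, and they were read from every probe set annotated to them alone, 9 of 31099. Il15 has 1 probe set, Csf1 4, Il33 2 and Tgfb2 2. The genes were chosen by their difference between T3+IFNγ and T3 cultures, so that difference is given as a description with no test. The comparisons of T3 with PDGF, and of T3 cultures at successive times, did not choose them and were tested, although they use the same T3 arrays.

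The 9 groups, of 3 arrays each with 1 array from each of 3 donors, were OPCs in PDGF at 0 h, OPCs withdrawn from PDGF and given T3 for 8, 24, 48 or 96 h, and OPCs given T3 together with IFNγ for the same times. The cells came from postnatal rat cortices by magnetic selection for A2B5, a surface ganglioside of glial progenitors, after which they were expanded in PDGF and Noggin. PDGF arrays exist at 0 h only, so T3 against PDGF is also PDGF withdrawal and time in culture, which cannot be told apart. The design also names cultures in IFNγ without T3, which were not analysed here.

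IL-15 is presented on its own receptor chain Il15ra to cells that carry Il2rb and the common γ chain Il2rg, mainly natural killer cells and CD8 T cells. CSF1 binds Csf1r, on which microglia depend for their survival and proliferation, and shares that receptor with IL-34. IL-33 is a nuclear protein released from damaged cells that acts through Il1rl1 (ST2) and Il1rap, and in mouse brain it is made by oligodendrocytes and astrocytes. TGF-β2 is secreted in a latent complex and, once freed, signals through Tgfbr1 and Tgfbr2 to Smad2 and Smad3. Promoters that respond to interferons often hold a palindrome called GAS or a repeat bound by interferon regulatory factors.

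By the RefSeq annotation of GRCr8, Il33 lies on chromosome 1 (237115478 to 237149897), Csf1 on chromosome 2 (198065400 to 198084774), Tgfb2 on chromosome 13 (100691540 to 100793227) and Il15 on chromosome 19 (42536160 to 42611349). RefSeq promoter windows, 250 bases before and 50 after a start site, were at hand for Il15, Tgfb2 and Il33, the last with 2 starts. The letters TTCNNNGAA (GAS) occur on either strand in 2970 of all 33469 such windows (8.87%) and the ISRE/IRF repeat, the element of interferon regulatory factors, in 1312 (3.92%). Neither occurred in the 4 windows of Il15, Tgfb2 and Il33, which says only that these letters are not there. Of 14 partner genes of the 4 cytokines that rose with IFNγ (below), 10 had a window, and of these 1 held the GAS letters and 2 the repeat. Myd88, an adaptor of the IL-1 and IL-33 receptors, held both, the GAS letters from base -22 and the repeat from base -16 before the start, so that they share 3 bases. The 250 bases before the start, the upstream part of the searched window, are shown for the 3 ligands that had one (for Il33 at 1 of its 2 starts), and for Myd88 as the window that holds both motifs (in capitals). They lie at chr19:42544456-42544705 (plus strand), chr13:100792686-100792935 (minus strand), chr1:237115323-237115572 (plus strand) and chr8:127956231-127956480 (minus strand), and G and C make up 48.4%, 61.6%, 47.2% and 54.4% of them.
Il15: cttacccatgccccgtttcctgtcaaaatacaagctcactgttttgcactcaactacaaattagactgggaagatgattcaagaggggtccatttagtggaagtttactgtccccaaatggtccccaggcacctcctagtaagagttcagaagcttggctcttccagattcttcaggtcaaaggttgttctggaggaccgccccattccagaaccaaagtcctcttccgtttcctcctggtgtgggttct
Tgfb2: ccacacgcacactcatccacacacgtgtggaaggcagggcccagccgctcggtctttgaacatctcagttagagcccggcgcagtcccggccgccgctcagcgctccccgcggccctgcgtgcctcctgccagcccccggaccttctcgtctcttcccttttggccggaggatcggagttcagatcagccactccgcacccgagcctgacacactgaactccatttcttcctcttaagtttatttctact
Il33: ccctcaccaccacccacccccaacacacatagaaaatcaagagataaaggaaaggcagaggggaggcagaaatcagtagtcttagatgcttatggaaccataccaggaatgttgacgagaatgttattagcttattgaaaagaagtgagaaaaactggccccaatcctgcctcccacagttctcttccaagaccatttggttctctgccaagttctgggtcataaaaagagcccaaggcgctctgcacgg
Myd88: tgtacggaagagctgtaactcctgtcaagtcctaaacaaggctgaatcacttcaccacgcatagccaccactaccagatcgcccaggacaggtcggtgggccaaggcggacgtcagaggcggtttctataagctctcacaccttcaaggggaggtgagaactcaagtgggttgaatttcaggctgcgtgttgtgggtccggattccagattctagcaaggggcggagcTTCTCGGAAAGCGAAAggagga

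Values are RMA signals on the log2 scale, so a difference of 1 is a doubling, and the levels of different probe sets cannot be set against each other. In bulk RNA a change in the share of a cell type and a change in RNA per cell cannot be told apart. The 5 OPC markers lay above the median of all values (5.99) in every group, and all 5 oligodendrocyte markers rose in T3 at 48 and 96 h, whereas 7 of 9 vascular and fibroblast markers and 4 of 5 T cell markers lay below that median throughout. Of 9 astrocyte markers 8, and of 6 neuron markers 4, lay above it in every group. In T3 1, 3, 2 and 4 astrocyte markers rose at 8, 24, 48 and 96 h and 1 fell, at 96 h, while 4 neuron markers fell at 96 h. With IFNγ 0, 2, 3 and 3 of the 5 oligodendrocyte markers fell at 8, 24, 48 and 96 h and none rose. Of the OPC markers 0, 1, 1 and 1 rose, of the neuron markers 1 at each time, and of the T cell markers 1 at 48 and at 96 h. Astrocyte markers rose in 0, 1, 1 and 1 cases and fell in 1, 1, 0 and 1, and 1 vascular and fibroblast marker fell at 48 h. Of 13 microglia and macrophage markers, 1, 4, 4 and 6 rose with IFNγ at 8, 24, 48 and 96 h and none fell, and 9 fell in T3 at 96 h. Of the 13, 3 (Itgam, Cx3cr1 and Tmem119) were below the median in every group. The summed level of the 13 ran from 8.77 to 9.16 in T3 and from 10.39 to 12.41 in T3+IFNγ at 96 h. The 3′ over 5′ signal of Gapdh (log2), a sign of RNA quality, was highest in T3+IFNγ of donor 2 at 8 h (0.37) and next at 24 h (0.11), and that of beta-actin was highest in the same donor with IFNγ at 24 h (1.47), then 8 h (1.34) and 48 h (1.16). The part of these in the results below was not tested.

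Il15 was the ligand with the largest difference between T3+IFNγ and T3. Without IFNγ its single probe set, 1368375_a_at, stayed low and nearly level. It read 4.61, 4.72 and 4.53 in donors 1, 2 and 3 in PDGF, and in T3 4.81, 4.56 and 4.83 (8 h), 4.30, 4.57 and 4.57 (24 h), 5.02, 4.69 and 4.54 (48 h) and 4.40, 4.65 and 4.69 (96 h). With IFNγ the same donors read 7.95, 7.56 and 7.85 (8 h), 7.47, 7.14 and 7.38 (24 h), 8.60, 7.55 and 8.02 (48 h) and 8.36, 8.24 and 8.17 (96 h). The lowest array with IFNγ (7.14) was thus above the highest without it (5.02). The mean difference between T3+IFNγ and T3 was 3.05 ± 0.07, 2.85 ± 0.30, 3.31 ± 0.39 and 3.67 ± 0.25 (SD over 3 donors) at 8, 24, 48 and 96 h, which is 8.30-, 7.20-, 9.90- and 12.8-fold. In the order of the levels, T3+IFNγ at 96 h (8.25) and 48 h (8.06) overlapped, as did 48 h and 8 h (7.78), and 24 h (7.33) lay below 8 h without overlap.

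Csf1 differed between T3+IFNγ and T3 in some of its probe sets and not in others. Probe set 1379631_at, designed from an expressed sequence tag, read 5.80, 5.82 and 6.03 in donors 1, 2 and 3 in T3 at 8 h against 7.42, 7.95 and 7.73 with IFNγ. At 24 h it read 6.30, 6.45 and 6.41 against 8.02, 8.67 and 8.14, at 48 h 6.31, 6.22 and 6.11 against 8.00, 8.47 and 8.28, and at 96 h 6.38, 6.55 and 6.47 against 8.06, 8.07 and 8.05. The groups never overlapped, and the differences of 1.82 ± 0.28, 1.89 ± 0.29, 2.04 ± 0.31 and 1.60 ± 0.08 (SD, n = 3 donors) correspond to 3.53-, 3.72-, 4.10- and 3.03-fold. A pair of probe sets designed from another tag differed by less. Probe set 1380583_s_at was higher with IFNγ in every donor at every time, by 0.79 ± 0.34, 0.62 ± 0.06, 0.73 ± 0.24 and 0.41 ± 0.22. Probe set 1380582_at differed by 0.40 ± 0.22, 0.43 ± 0.18, 0.12 ± 0.20 and 0.21 ± 0.12, with groups that overlapped at 48 and 96 h. Probe set 1369354_at, designed from a RefSeq mRNA, had group means from 6.43 to 6.66 over all 9 groups and differences of 0.19 ± 0.13, 0.18 ± 0.10, 0.003 ± 0.26 and -0.06 ± 0.09, with overlap at every time. The correlation between Csf1 probe sets over the 27 arrays, which share groups and donors, ran from 0.38 (1379631_at with 1369354_at) to 0.87 (1380582_at with 1380583_s_at). The sources used here give no position of a probe set within Csf1, so which of them follows which transcript was not determined.

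**Figure D1:**
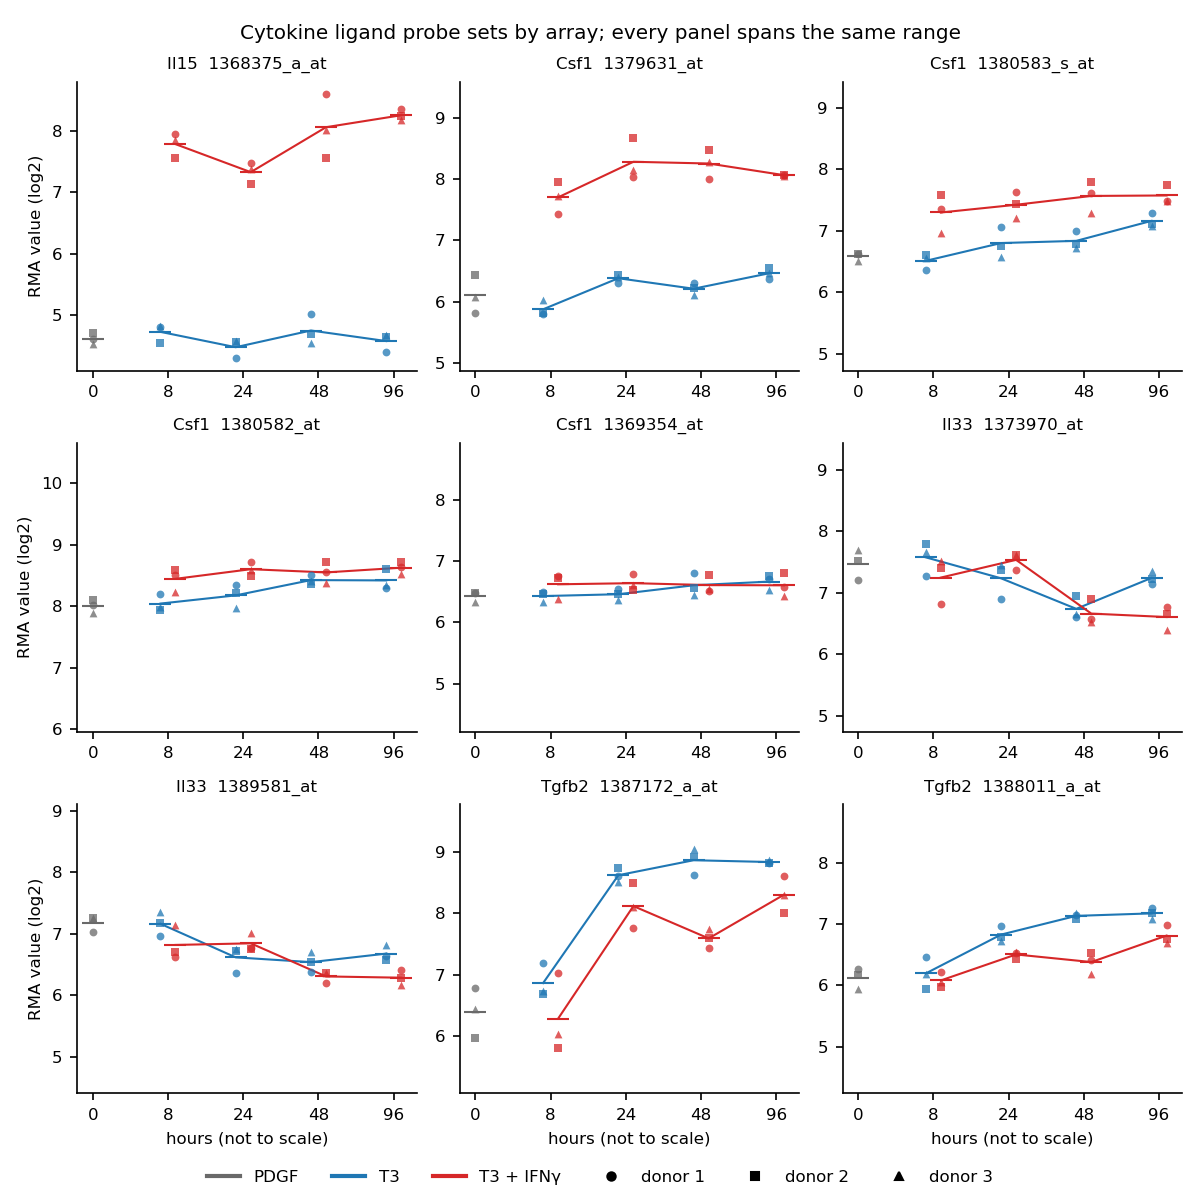
RMA value (log2) of each of the 9 probe sets by time in hours. Points are arrays, shaped by donor and coloured by group (grey PDGF, blue T3, red T3+IFNγ), bars and lines are group means, and every panel spans the same range. Il15 and Csf1 1379631_at separate by IFNγ at every time, with the lowest Il15 array with IFNγ at 7.14, and both Tgfb2 probe sets rise with T3.

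Tgfb2 was lower with IFNγ than in T3 in nearly every pair of arrays, most at 48 h. At 48 h probe set 1387172_a_at read 8.61, 8.92 and 9.05 in donors 1, 2 and 3 in T3 and 7.44, 7.59 and 7.74 with IFNγ, a difference of -1.27 ± 0.08 (2.41-fold lower). Probe set 1388011_a_at read 7.14, 7.08 and 7.17 against 6.42, 6.53 and 6.19 there, a difference of -0.75 ± 0.22. Neither overlapped at 24, 48 or 96 h. At 8, 24 and 96 h the first of them differed by -0.58 ± 0.38, -0.50 ± 0.31 and -0.53 ± 0.30 and the other by -0.11 ± 0.13, -0.32 ± 0.13 and -0.36 ± 0.07. Only 1388011_a_at in donor 2 at 8 h was higher with IFNγ, by 0.02.

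Il33 differed by less, and its sign varied with time. Probe set 1373970_at read 6.89, 7.37 and 7.45 in T3 against 7.37, 7.62 and 7.62 with IFNγ at 24 h, and 7.14, 7.23 and 7.36 against 6.78, 6.65 and 6.40 at 96 h. The arrays with IFNγ were higher in all 3 donors at 24 h, with overlapping groups, and lower in all 3 at 96 h, without overlap. Its differences at 8, 24, 48 and 96 h were -0.33 ± 0.16, 0.30 ± 0.16, -0.08 ± 0.05 and -0.64 ± 0.30, and those of 1389581_at were -0.34 ± 0.12, 0.23 ± 0.19, -0.23 ± 0.09 and -0.39 ± 0.23.

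Over the 9 probe sets, which share 4 targets, 3, 4, 5 and 3 passed the threshold used for all probe sets (limma, Benjamini-Hochberg adjusted p under 0.05) for T3+IFNγ against T3 at 8, 24, 48 and 96 h, where 3.62%, 8.67%, 12% and 10.1% of all 31042 probe sets that are not controls did. Since this comparison chose the genes, nothing is read from these counts. Groups did not overlap for 4, 6, 6 and 7 of the 9, against 14.9%, 24.2%, 29.0% and 30.1% of all probe sets. The median difference of the 9 was 0.19, 0.30, 0.003 and -0.06, and that of all probe sets between -0.05 and -0.03.

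**Figure D2:**
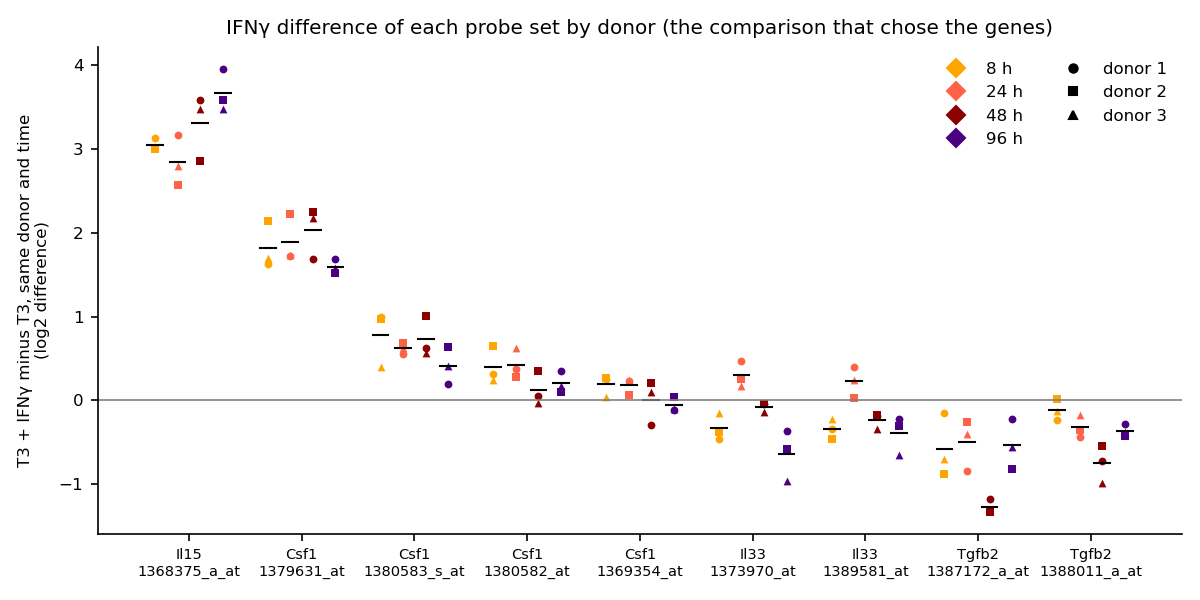
Difference in RMA value (log2) between T3+IFNγ and T3 of the same donor and time, for the 9 probe sets. Points are donors (shape) at 8, 24, 48 and 96 h (colour), and the black bars are means. The 4 Csf1 probe sets spread from 2.04 at most for 1379631_at to between -0.06 and 0.19 for 1369354_at.

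The summed microglia markers with IFNγ were highest in donor 3 at every time, at 12.18, 12.83, 13.05 and 12.41 at 8, 24, 48 and 96 h. Over the 36 readings of the 9 ligand probe sets with IFNγ at these times, donor 1 was highest in 14, donor 2 in 16 and donor 3 in 6. The readings with donor 3 highest were 4 of Il33 and 2 of Tgfb2. Il15 was highest in donor 1 at all 4 times and Csf1 1379631_at in donor 2. These readings are levels, not differences from T3, and they repeat the same genes and donors, so they are not independent. The part of the microglia markers in the ligand values was not tested.

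Without IFNγ, T3 cultures were compared with PDGF. Tgfb2 rose, by far the most of the 4 ligands, Il33 fell, Csf1 rose in some probe sets, and Il15 did not pass the test. Of the 9 probe sets, 0, 2, 3 and 4 rose and 0, 1, 2 and 1 fell at 8, 24, 48 and 96 h, and at 8 h 0 had an unadjusted p under 0.05 as well. Over all probe sets 7.81%, 26.4%, 33.4% and 43% passed at these times, so the counts at 8, 24 and 96 h are close to the background. At 48 and at 96 h 5 of 9 probe sets passed, and these read only 3 genes, so nothing is read from the counts. All adjusted p-values are from limma with Benjamini-Hochberg adjustment over all probe sets within a comparison, and the 4 comparisons share their PDGF arrays.

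Tgfb2 1387172_a_at read 6.78, 5.97 and 6.44 in donors 1, 2 and 3 in PDGF. In T3 it read 7.18, 6.68 and 6.73 (8 h), 8.61, 8.74 and 8.50 (24 h), 8.61, 8.92 and 9.05 (48 h) and 8.82, 8.81 and 8.86 (96 h). From 24 h on, every T3 array lay above every PDGF array. The change was 0.47 (standard error 0.25 throughout) at 8 h (limma adjusted p = 0.319), 2.22 at 24 h (adjusted p = 2.44e-07), 2.46 at 48 h (adjusted p = 3.71e-08) and 2.44 at 96 h (adjusted p = 1.83e-08), which is 4.66-, 5.52- and 5.41-fold at the last 3 times. The other probe set, 1388011_a_at, moved from 6.27, 6.17 and 5.95 in PDGF to 7.26, 7.18 and 7.08 at 96 h. Its changes of 0.70, 1.0 and 1.05 (standard error 0.12) at 24, 48 and 96 h also passed (limma adjusted p = 8.47e-05, 5.23e-07 and 1.33e-07). Most of the rise fell between 8 and 24 h, where the steps were 1.75 and 0.63 (limma adjusted p = 1.26e-05 and 0.000473). Over the same step the summed astrocyte markers went from a mean of 13.44 (arrays between 13.26 and 13.63) to 14.21 (between 13.66 and 14.49), with Gfap at 9.59 and then 11.23, and the summed oligodendrocyte markers from 12.37 to 14.20. Their part in the Tgfb2 rise was not tested. The later steps did not pass, except that 1388011_a_at rose by 0.31 from 24 to 48 h with donors as a replicate block (limma adjusted p = 0.0329, against 0.103 without). Without donor 2 the step of 1388011_a_at from 8 to 24 h did not pass (0.53, limma adjusted p = 0.0561).

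Il33 1389581_at fell from 7.03, 7.25 and 7.25 in donors 1, 2 and 3 in PDGF to 6.36, 6.72 and 6.76 (24 h), 6.38, 6.53 and 6.70 (48 h) and 6.63, 6.58 and 6.81 (96 h). No T3 array of these times reached the PDGF arrays. The changes were -0.56, -0.64 and -0.50 (standard error 0.14, limma adjusted p = 0.00303, 0.000685 and 0.00438), and the step from 8 to 24 h was -0.55 (limma adjusted p = 0.00616). All 4 of these calls were lost without donor 2 (limma adjusted p from 0.0514 to 0.149), while the changes then ran from -0.60 to -0.41. Probe set 1373970_at read 7.22, 7.52 and 7.70 in PDGF and 6.62, 6.95 and 6.66 at 48 h, a fall of 0.74 (limma adjusted p = 0.00254), and this was lost without donor 3 (change -0.58, adjusted p = 0.0939). At 96 h it had returned to 7.14, 7.23 and 7.36, a change of -0.23 from PDGF (limma adjusted p = 0.332). Its steps of -0.50 from 24 to 48 h and 0.50 from 48 to 96 h missed the threshold (limma adjusted p = 0.0753 and 0.0544) and passed with donors as a replicate block (adjusted p = 0.0159 and 0.0104).

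Csf1 rose in T3 in 2 of its 4 probe sets. Probe set 1380582_at went from 8.02, 8.11 and 7.89 in donors 1, 2 and 3 in PDGF to 8.50, 8.37 and 8.41 (48 h) and 8.30, 8.62 and 8.35 (96 h), changes of 0.42 and 0.42 (standard error 0.12, limma adjusted p = 0.00738 and 0.00604). Probe set 1380583_s_at went from 6.62, 6.61 and 6.51 to 7.28, 7.11 and 7.08 at 96 h, a change of 0.58 (standard error 0.15, limma adjusted p = 0.00344). The call of 1380582_at was lost at 48 h without donor 1 or donor 3 and at 96 h without donor 2 (limma adjusted p = 0.0629, 0.0685 and 0.0645). Probe set 1379631_at, which differed most with IFNγ, changed by 0.35 at 96 h (limma adjusted p = 0.0823, and 0.0245 with donors as a replicate block), and 1369354_at by 0.23 (adjusted p = 0.119, and 0.0392 with the block). Between 8 and 24 h 1379631_at rose by 0.51 (limma adjusted p = 0.0300), which was lost without donor 2 or donor 3 (adjusted p = 0.0894 and 0.203).

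Il15 changed in T3 by 0.11, -0.14, 0.13 and -0.04 at 8, 24, 48 and 96 h against PDGF (limma adjusted p from 0.632 to 0.891). The 95% intervals of these differences reached from -0.51 at the lowest to 0.51 at the highest. A change of up to about that size is thus not excluded by these arrays.

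**Figure D3:**
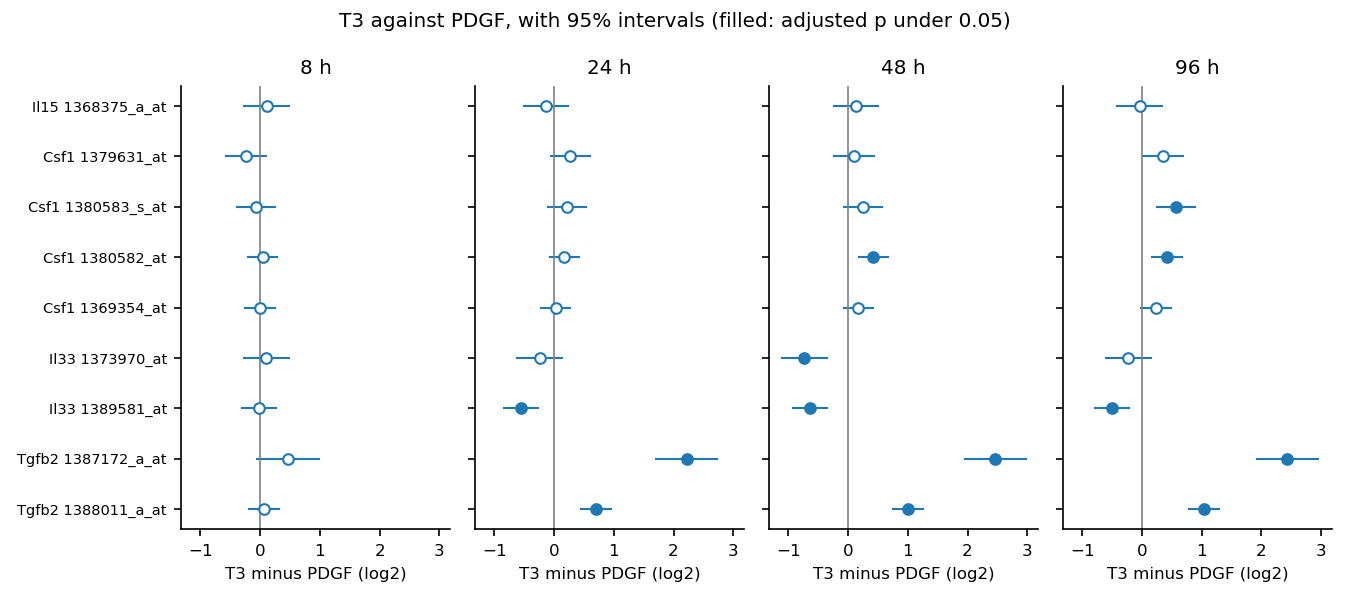
Change in RMA value (log2) between T3 and PDGF for the 9 probe sets at 8, 24, 48 and 96 h, with 95% intervals from the fit. Filled points passed an adjusted p of 0.05. Both Tgfb2 probe sets lie to the right from 24 h on (2.22 and 0.70), Il33 1389581_at to the left, and Il15 on the zero line.

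Between successive times within T3, 4 of the 9 probe sets passed from 8 to 24 h (3 rose, 1 fell), against 17.4% of all probe sets. None passed in limma from 24 to 48 h or from 48 to 96 h, against 13.3% and 20.0%, while 3 and 2 had an unadjusted p under 0.05, and with donors as a replicate block 2 and 1 did.

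Receptors and other partners of the 4 ligands were read from 66 listed genes, of which 56 had a probe set of their own, Il15ra and Tgfbr2 not among them. With IFNγ 4, 7, 9 and 9 rose and 0, 2, 2 and 3 fell at 8, 24, 48 and 96 h. Over all 14217 genes 4.78%, 11.1%, 15% and 12.5% passed at these times. The median change of the 56 genes lay between -0.04 and 0.05, and that of all genes between -0.05 and -0.02. In T3 against PDGF 0, 6, 5 and 5 rose and 1, 2, 11 and 13 fell, where 10.7%, 33.3%, 41.4% and 51.8% of all genes passed.

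On the IL-15 side, 2, 3, 3 and 3 of 10 measured genes rose with IFNγ at 8, 24, 48 and 96 h and none fell. Il2rg, the common γ chain, read 3.63, 3.71 and 3.81 in T3 and 4.68, 4.71 and 5.99 in T3+IFNγ at 48 h, and 4.11, 3.81 and 3.76 against 5.01, 5.06 and 5.71 at 96 h. Every array with IFNγ was above every T3 array, with donor 3 highest, as in the microglia markers. Il2rg rose by 0.84, 1.41 and 1.37 at 24, 48 and 96 h (limma adjusted p = 0.0296, 0.000248 and 0.000346). Jak1, the kinase bound to these receptors, rose at all 4 times in the probe set used, by 0.88, 0.67, 0.63 and 0.50. Its other probe set passed at 8 and 24 h but not at 48 or 96 h (0.58 and 0.52, limma adjusted p = 0.0529 and 0.102). Il7, another cytokine that uses the γ chain, rose by 0.60, 0.57 and 0.51 at 8, 48 and 96 h in the probe set used. The other Il7 probe set changed by 0.12, 0.27, 0.26 and 0.15 and passed at no time (limma adjusted p from 0.0791 to 0.747). Il2rb, the chain that IL-15 needs beside Il2rg, changed by -0.03, -0.23, -0.06 and -0.16, and none of these passed (limma adjusted p from 0.266 to 0.974). Stat5a rose by 0.60 at 24 h. Several of these calls were lost without 1 donor (limma adjusted p from 0.0640 to 0.354): Il2rg at 24 h without donor 1 or 2, Jak1 at 48 and 96 h without donor 3, Il7 at 8 h without donor 1 or 3, at 48 h without donor 3 and at 96 h without donor 2 or 3, and Stat5a without donor 2 or 3.

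On the CSF1 side, 0, 1, 1 and 1 of 8 genes rose with IFNγ. Csf1r read 4.98, 4.82 and 4.75 in T3 and 6.12, 5.15 and 6.93 in T3+IFNγ at 96 h. All donors were higher with IFNγ there, by unequal amounts, and Csf1r is also 1 of the 13 microglia markers. Its changes of 1.12, 1.25 and 1.22 at 24, 48 and 96 h missed the threshold (limma adjusted p = 0.191, 0.110 and 0.135) and passed with donors as a replicate block (adjusted p = 0.0246, 0.00963 and 0.0129). In T3 against PDGF it fell by 1.49 at 48 h and by 1.70 at 96 h (limma adjusted p = 0.0214 and 0.00661), as the summed microglia markers went from 9.85 to 11.23 in PDGF to 8.77 to 9.16 in T3 at 96 h. Both falls of Csf1r were lost without donor 2 (-1.16 and -1.50, limma adjusted p = 0.198 and 0.0706). Csf2ra, a receptor chain for GM-CSF, rose with IFNγ by 1.06 at 48 h and 1.43 at 96 h and fell by 1.20 in T3 at 96 h. Csf1r and Csf2ra with IFNγ were both highest in donor 3 at every time, as were the microglia markers, whose part here was not tested. Csf3r rose by 0.50 at 24 h, which was lost without donor 2 or 3 (limma adjusted p = 0.110 and 0.444). Il34, the other ligand of Csf1r, changed by 0.05, 0.22, 0.20 and 0.22 with IFNγ, none past the threshold (limma adjusted p from 0.522 to 0.968).

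**Figure D4:**
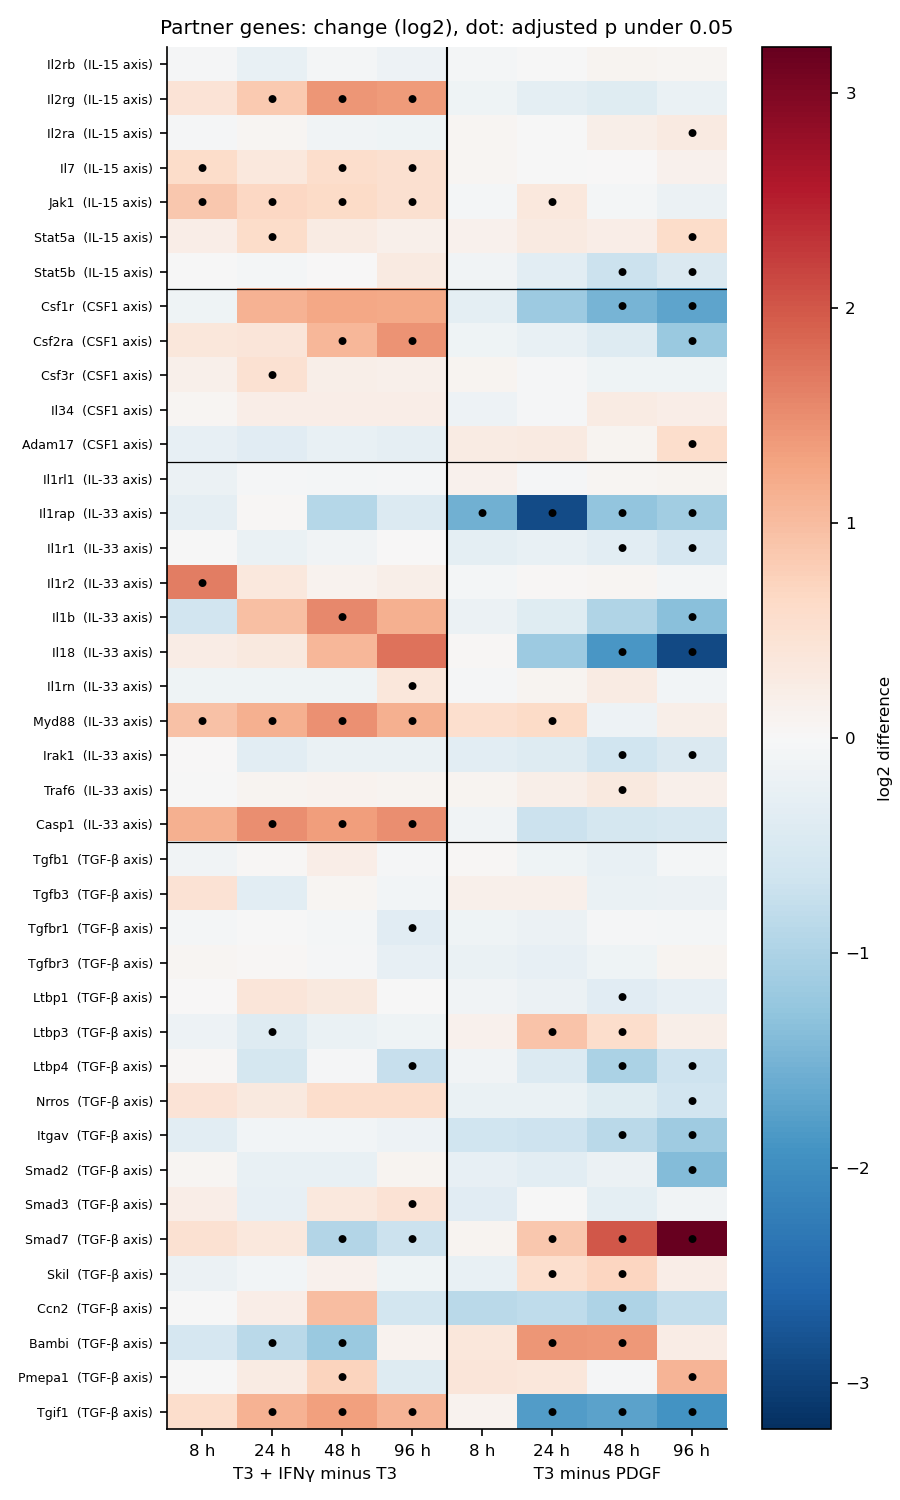
Change in RMA value (log2, colour) of 40 partner genes with IFNγ (left) and with T3 against PDGF (right) at 8, 24, 48 and 96 h, grouped by ligand. Dots mark an adjusted p under 0.05. The genes are the 34 called at least once and 6 receptors or related ligands shown whether called or not. Il1rap and Smad7 carry the deepest colours on the right, with -2.87 at 24 h and 3.21 at 96 h.

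On the IL-33 side, 2, 2, 3 and 3 of 13 genes rose with IFNγ and none fell. Myd88 rose at all 4 times, by 0.93, 1.13, 1.48 and 1.15 (limma adjusted p from 6.44e-06 to 0.00361). Casp1, a protease that matures IL-1β and IL-18, rose by 1.49, 1.34 and 1.49 at 24, 48 and 96 h. Il1b rose by 1.54 at 48 h and Il1rn, which blocks the IL-1 receptor, by 0.35 at 96 h. Without 1 donor some of these calls were lost (limma adjusted p from 0.0595 to 0.308): Myd88 at 8 h without donor 2, Casp1 without donor 1 at all 3 times and without donor 2 at 24 and 48 h, Il1b without donor 1 or 2, and Il1rn whichever donor was left out. With donors as a replicate block Casp1 also passed at 8 h (1.14, limma adjusted p = 0.00243), Il1b at 24 and 96 h (0.97 and 1.14, adjusted p = 0.0186 and 0.00476) and Il18 at 48 and 96 h (1.07 and 1.75, adjusted p = 0.00469 and 2.83e-05). Casp1, Il1b and Il18 with IFNγ were highest in donor 3 at every time, as were the summed microglia markers. Donor 3 read 7.35 for Casp1, 7.99 for Il1b and 9.03 for Il18 at 48 h. The part of the microglia markers in these changes was not tested. Il1r2, a decoy receptor for IL-1, read 3.66, 3.82 and 3.79 in T3 and 5.24, 5.37 and 5.60 in T3+IFNγ at 8 h, but 3.84, 3.80 and 3.67 against 3.94, 4.12 and 3.85 at 96 h. It rose by 1.65 at 8 h (limma adjusted p = 6.34e-10), and this change was larger than that at 96 h by the test of the difference itself (-1.45, limma adjusted p = 1.06e-05).

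Neither chain of the IL-33 receptor passed with IFNγ in the main fit. Il1rl1 changed by -0.19, -0.04, -0.07 and -0.05 with IFNγ and by no more than 0.14 in T3, none past the threshold. Its other probe set changed by -0.31 with IFNγ at 48 h (limma adjusted p = 0.164). Il1rap, the partner chain, changed by -0.28, 0.03, -0.91 and -0.43 with IFNγ (limma adjusted p from 0.0705 to 0.979). At 48 h it read 7.46, 6.99 and 6.48 in T3 against 6.74, 5.46 and 5.99, and passed without donor 1 (-1.01, adjusted p = 0.00135). The other Il1rap probe set changed by -0.49 there (adjusted p = 0.165). Without IFNγ Il1rap read 8.68, 7.96 and 8.13 in PDGF, and in T3 5.93, 6.96 and 7.25 (8 h), 5.28, 5.39 and 5.50 (24 h) and 7.37, 6.99 and 7.04 (96 h). Il1rap was lowest at 24 h and came part of the way back by 48 h. It changed by -1.54, -2.87, -1.28 and -1.12 against PDGF (limma adjusted p = 0.00470, 2.88e-07, 0.00306 and 0.00633). The call at 8 h was lost without donor 2 (limma adjusted p = 0.0857) and in a fit of the compared groups only (adjusted p = 0.0756). That at 48 h was lost without donor 3 (adjusted p = 0.0832) and that at 96 h without donor 2 or donor 3 (adjusted p = 0.0552 and 0.0536). The one at 24 h was not lost without any donor. The other Il1rap probe set passed against PDGF at 8 and 24 h (-1.06 and -1.49, limma adjusted p = 0.00392 and 1.08e-05). Its changes of -0.42 and -0.53 at 48 and 96 h did not pass (limma adjusted p = 0.154 and 0.0533). In T3 at 96 h Il18 fell by 2.91, Il1b by 1.33 and Irak1 fell by 0.47, the Il1b call being lost without donor 2 (limma adjusted p = 0.0927) and that of Irak1 without donor 2 or 3 (adjusted p = 0.166 and 0.154). Il1r1, the IL-1 receptor, fell by 0.53 there in the probe set used, whereas another of its 3 probe sets rose by 0.46, so its direction is uncertain.

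On the TGF-β side, 0, 3, 4 and 5 of 25 genes passed with IFNγ, in both directions. Smad7, which blocks TGF-β receptors, read 7.76, 7.58 and 7.04 in T3 and 6.59, 6.42 and 6.53 in T3+IFNγ at 48 h, and 8.93, 8.41 and 8.69 against 8.08, 7.84 and 8.07 at 96 h. It was lower with IFNγ in each donor at both times and fell by 0.95 and by 0.68 (limma adjusted p = 9.97e-05 and 0.00340). At 8 and 24 h the changes were 0.49 and 0.34, which did not pass, and the change at 96 h differed from that at 8 h by -1.17 (limma adjusted p = 0.00196). Without donor 2 this difference (-1.22, limma adjusted p = 0.0855) and the fall at 96 h (-0.73, adjusted p = 0.0536) did not pass. These Smad7 values are from its brightest probe set. In another of its probe sets the change passed at 48 h (-0.53, limma adjusted p = 0.0478) but not at 96 h (-0.48, adjusted p = 0.0910). In a further one neither passed (-0.28 and -0.14, limma adjusted p = 0.291 and 0.659). Bambi, a decoy receptor of the family, fell by 0.87 and by 1.19 at 24 and 48 h. Tgif1, a transcriptional corepressor that binds Smad2, rose by 1.11, 1.31 and 1.09 at 24, 48 and 96 h (limma adjusted p from 9.72e-06 to 0.000110). Of the latency binding proteins, Ltbp3 fell by 0.41 at 24 h and Ltbp4 by 0.73 at 96 h. Pmepa1 rose by 0.72 at 48 h and Smad3 by 0.47 at 96 h (limma adjusted p = 0.0487), while another Smad3 probe set changed by -0.06 there (adjusted p = 0.842). Without 1 donor several of these calls were lost (limma adjusted p from 0.0694 to 0.430): Bambi at 24 h without donor 2 or 3 and at 48 h without donor 2, Ltbp3 without donor 2 or 3, Ltbp4 without donor 1 or 3, Pmepa1 without donor 2, and Smad3 whichever donor was left out. Smad3 was also lost with arrays centred on their medians and with an intensity trend (adjusted p = 0.0689 and 0.0524).

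In T3 against PDGF, the brightest Smad7 probe set rose by 0.87, 2.0 and 3.21 at 24, 48 and 96 h (limma adjusted p = 8.69e-05, 3.84e-10 and 7.37e-14). Its other probe sets did not rise at 24 h (-0.14 and 0.001, limma adjusted p = 0.625 and 0.998). They changed by 0.33 and 0.66 at 48 h (limma adjusted p = 0.104 and 0.00450). At 96 h they rose by 0.40 and 1.07 (limma adjusted p = 0.0410 and 1.86e-05). Bambi rose by 1.41 and 1.39 at 24 and 48 h, Tgif1 changed by -1.80, -1.73 and -1.93 at 24, 48 and 96 h, and Smad2 fell by 1.40 and Itgav by 1.13 at 96 h. The other ligands, Tgfb1 and Tgfb3, changed by at most 0.24 in size and did not pass at any time (limma adjusted p from 0.161 to 0.962), whereas Tgfb2 rose by 2.44 at 96 h. With IFNγ neither passed, but Tgfb3 did at 8 h with donors as a replicate block (0.46, limma adjusted p = 0.0408, against 0.113 without). Tgfbr1 fell by 0.37 with IFNγ at 96 h (limma adjusted p = 0.0264, lost without donor 1 or donor 2), and Tgfbr3 did not pass with IFNγ. In T3 neither passed in the probe set used, whereas at 96 h another probe set rose by 0.34 for Tgfbr1 (limma adjusted p = 0.0391) and by 0.33 for Tgfbr3 (adjusted p = 0.00934), and without donor 1 the one used for Tgfbr1 fell by 0.30 (adjusted p = 0.0467), so their direction in T3 is uncertain.

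The change with IFNγ at 96 h differed from that at 8 h for 2 of the 56 genes, Il1r2 and Smad7, against 3.88% of all genes.

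**Figure D5:**
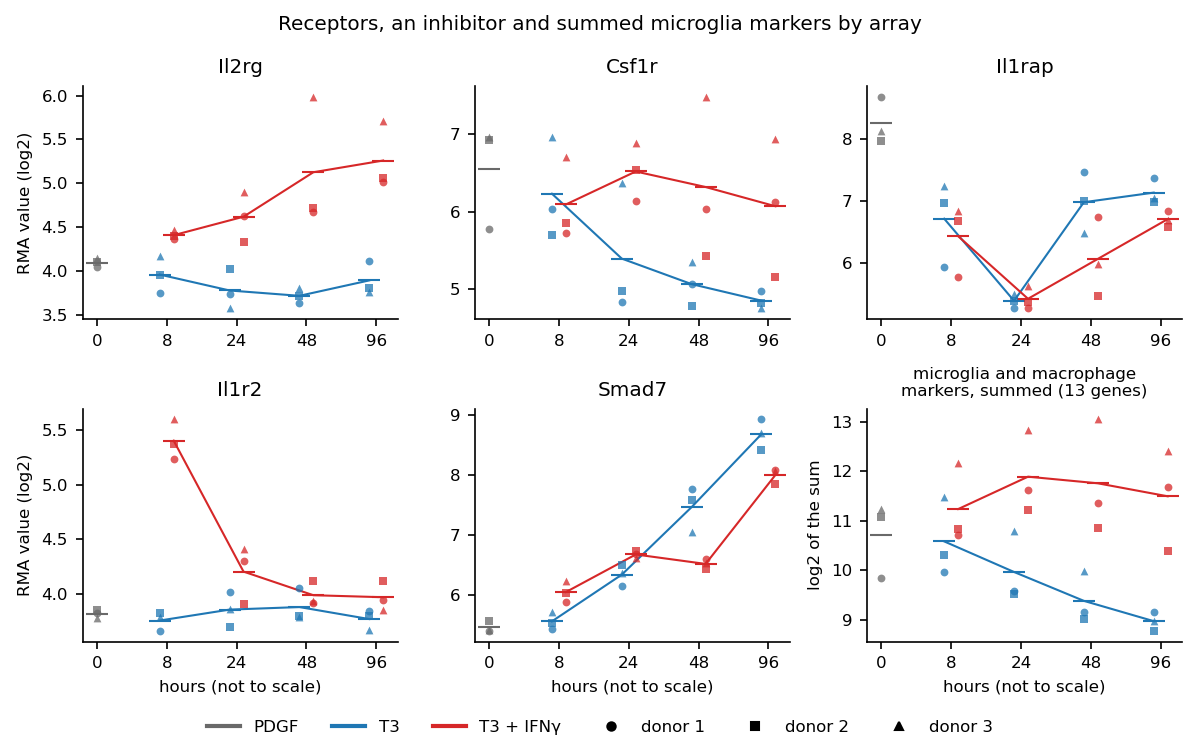
RMA value (log2) by time in hours of 3 receptors, a decoy receptor (Il1r2), the inhibitor Smad7, and the log2 of the summed signal of 13 microglia and macrophage markers. Points are arrays shaped by donor and coloured by group, and bars are group means. Il1r2 stands apart with IFNγ at 8 h, from 5.24 to 5.60, and the summed markers and Il2rg are highest with IFNγ in donor 3.

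The genes whose levels ran most alike with each ligand over the 27 arrays are given as a description, since the arrays fall into 9 groups and share donors. For Il15 they were Cflar, Casp12, Ifit2, Rsad2 and Ifi35, with Pearson r from 0.981 to 0.986 and Spearman rho from 0.789 to 0.932. For Csf1 1379631_at they were C1s, LOC100910973, Parp10, Psmb8 and Mx1 (r from 0.967 to 0.980), and for Csf1 1380583_s_at they were Pnpla2, Tvp23a, Rhpn2, Cyld and Helz2 (r from 0.866 to 0.890), with no gene in common between these lists. For Tgfb2 1387172_a_at they were Lhpp, Kiaa1191, Dbt, Ccdc47 and Serinc5 (r from 0.929 to 0.939), and for 1388011_a_at Dgat2, Urm1, Sft2d3, Apbb1 and Rab2a (r from 0.922 to 0.929), again with none in common. The 2 Tgfb2 probe sets correlated with each other at 0.91 and the 2 Il33 probe sets at 0.87. The other probe sets spanned less than 1 on the log2 scale between group means and were not searched.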

How the data were processed

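RNA from the 27 cultures was hybridised to Affymetrix rat arrays. The authors deposited 1 table of log2 values, which their notes attribute to RMA (background correction, quantile normalization and summary per probe set), with limma for comparisons, no version being given for either. The values run from 2.28 to 14.49, and array medians from 5.95 to 6.03, and no further normalization or filter was applied. Depth does not apply to arrays, and 3 arrays a group limit the precision. The files give no detection calls, so whether a low probe set is above background is unknown. The platform annotation of 2016 names 1 symbol for 20832 of 31099 probe sets, several for 436 and none for 9831, and 20758 of the single ones were matched by Entrez identifier to GRCr8. Ligands were read probe set by probe set. Other genes were read from their brightest probe set (mean of the 27 arrays).

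R 4.3.3 with limma 3.58.1 fitted 9 group means over all 27 arrays (lmFit and eBayes), with Benjamini-Hochberg adjustment over 31042 probe sets that are not controls, and called an adjusted p under 0.05. The fit was also run on simulated arrays with independent noise and no donor effect. The real arrays correlate by donor, so that run does not cover the pairing. Python 3.11.15, pandas 2.3.3, NumPy 2.4.6 and matplotlib 3.10.9 were used for tables, motif searches and plots. The replicate numbers are donors, so they pair the arrays. Deviations from group means correlated with a median r of 0.295 over 108 pairs of the same donor. Over 216 pairs of different donors it was -0.151. Centring on group means makes the second value negative where the first is positive, so it is no separate sign of pairing. The main fit did not use this pairing, and only the alternative with donors as a replicate block did, which changed some calls. No arrays were identical (highest r 0.9967). The alternatives were donors as a replicate block, leaving out each donor, 1 probe set per gene, dim probe sets left out, arrays centred on their medians, compared groups only, an intensity trend in the variance prior and, chosen after seeing the data, leaving out the T3+IFNγ arrays of donor 2 at 8 and 24 h.

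The ligands, the lists of partners and markers and the tests were chosen with earlier results of these data known. Named were every ligand probe set, the receptors and direct relatives whether called or not, up to 4 called genes with the largest change per list and comparison, and the 5 genes most correlated with each ligand probe set whose group means span at least 1.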

Additional observations from a re-analysis of the deposited data

Results flagged for a closer look

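Il33 1373970_at was higher with IFNγ than in T3 in all 3 donors at 24 h (mean 0.30) and lower in all 3 at 96 h (mean -0.64), so that the 2 differences lie 0.94 apart. Il33 1389581_at did the same, at 0.23 and -0.39, which lie 0.62 apart. Csf1 1379631_at was lower in T3 than in PDGF in all 3 donors at 8 h (mean -0.23) and higher in all 3 at 96 h (mean 0.35), a gap of 0.58. These 3 contrasts drew notice because the donors moved one way at one time and the opposite way at another, and the differences between the times were not tested. The Il33 pair comes from the comparison that chose the genes, and both probe sets read the same gene.

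By the test of the difference itself, the change with IFNγ at 96 h was lower than that at 8 h for Il1r2 (-1.45, limma adjusted p = 1.06e-05) and Smad7 (-1.17, limma adjusted p = 0.00196). For Smad7 this was read from its brightest probe set alone. Il1r2 went from 1.65 at 8 h to 0.20 at 96 h, and Smad7 from 0.49 to -0.68. Without donor 2 the Smad7 difference did not pass (-1.22, limma adjusted p = 0.0855).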

How the results depend on the processing

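No single change of a ligand probe set or of a named partner gene turned its sign while called. Of 630 values for ligand probe sets under the alternatives, 606 kept their side of the threshold, 12 lost it and 12 gained it. Of 3033 values for partner genes 2888, 80 and 65 did. The sign of values that passed in neither fit was not checked. With donors as a replicate block, 2 ligand probe sets passed from 24 to 48 h and 1 from 48 to 96 h (0 and 0 without). Among partner genes the block called 7 with IFNγ at 8 h (4 without), 4 in T3 at 8 h (1 without), 16 in T3 at 24 h (8 without) and 5 interactions (2 without). Beyond the calls given above as lost or gained, the block changed calls of partner genes only by adding them. Leaving out 1 donor at a time gave 3 to 4 ligand calls in T3 at 48 h (5 with all), 1 to 4 from 8 to 24 h (4), 0 to 1 from 24 to 48 h (0) and 0 to 1 from 48 to 96 h (0). It gave 3 to 9 partner genes with IFNγ at 24 h (9), 7 to 12 at 48 h (11) and 7 to 8 at 96 h (12), 0 to 5 in T3 at 8 h (1), 8 to 14 at 48 h (16) and 1 to 2 interactions (2). From 48 to 96 h 1 ligand probe set, Il33 1373970_at, passed with 1 probe set per gene, with dim probe sets left out and with the compared groups only. In T3 at 8 h partner calls were 2 with 1 probe set per gene, 2 with centred arrays, 0 with the compared groups only and 2 with an intensity trend. Leaving out dim probe sets left 29 partner genes, with 2 calls at 8 h with IFNγ and 1 interaction. The cause of these shifts was not tested. Some of the settings also leave fewer arrays or genes.

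With 3 arrays a group, some calls were lost when 1 donor was left out, among the ligands most often donor 2. Leaving out a donor also leaves fewer arrays, and the lost calls were not only those near the threshold. Il33 1389581_at in T3 at 48 h went from a limma adjusted p of 0.000685 to 0.0514 without donor 2, while its change went from -0.64 to -0.60. Signal over background was not analysed here, so how far it limits the dim probe sets is unknown.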
